A study of Mus musculus with 2 samples.

Results

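Mir103-1, Mir103-2, Mir107, Mir33 and Mir139 are mouse microRNA genes whose hairpins lie in introns of genes of coenzyme A, cholesterol and cyclic nucleotide metabolism. They were chosen by gene symbol in the GENCODE M21 annotation, and all 5 were found among the 2202 microRNA genes counted. RNA shorter than 30 nt was sequenced from the gastrocnemius, a large calf muscle, of females 14 days old. The mice were B6CASTF1/J, the F1 hybrid of C57BL/6J and CAST/EiJ, and the labels name no treatment, so there was 1 group of 2 biological replicates and no contrast between conditions. The biosample name of replicate 1 speaks of 3 females and that of replicate 2 uses the singular, but the number of animals behind each library is not stated. Both share a donor identifier, so the spread between them may be partly technical.

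A hairpin inside an intron is often, but not always, transcribed with its host gene, and host RNA was not measured here. The hairpin is cut out by Drosha and trimmed by Dicer to a short duplex. An arm of the duplex guides Argonaute to target messages through its seed, bases 2 to 8. The Pank genes encode pantothenate kinases, which catalyse the rate-controlling step of coenzyme A synthesis, and miR-103 and miR-107 are known in mice as brakes on insulin sensitivity in liver and fat. Srebf2 encodes the transcription factor that switches on cholesterol synthesis and uptake, and its intronic miR-33 represses the cholesterol exporter Abca1. Pde2a encodes a phosphodiesterase that breaks down cyclic AMP and cyclic GMP, and miR-139 is best known from human tumours, in which it restrains growth factor signalling.

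The mature arms are shown because their seeds set the targets and because their likeness decides which reads could be counted. All 9 arms come from RefSeq (GRCm38.p6), in which all 5 genes were matched, and each is written 5′ to 3′ with the seed in capitals.
miR-103-1-5p: gGCUUCUUuacagugcugccuug
miR-103-2-5p: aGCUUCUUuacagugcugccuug
miR-107-5p: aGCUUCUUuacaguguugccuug
miR-103-3p: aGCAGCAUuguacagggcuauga
miR-107-3p: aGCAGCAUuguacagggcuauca
miR-33-5p: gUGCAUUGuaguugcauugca
miR-33-3p: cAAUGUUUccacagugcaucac
miR-139-5p: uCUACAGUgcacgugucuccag
miR-139-3p: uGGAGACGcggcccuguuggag

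The 3 Pank hairpins shared a seed on each arm, and no other gene in the RefSeq table, which is not complete, had either of those seeds. The same held for the 4 seeds of Mir33 and Mir139, each of which occurred in a single gene. Among 1738 mature entries from 1058 genes, these 5 genes therefore formed 3 seed groups of their own. The seed of miR-33-5p occurred again at base 13 of the same arm, so its 7 letters appear 2 times within 21 nt. Between genes of different seed groups the arms shared no stretch longer than 8 nt. An example is gcauugua, common to miR-103-3p, miR-107-3p and miR-33-5p.

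Within the Pank group the arms were nearly the same. With positions counted from 1 at the 5′ end of the first-named arm, miR-103-1-5p and miR-103-2-5p differed only by G1A. The change from miR-103-2-5p to miR-107-5p was C16U, and that from miR-103-3p to miR-107-3p was G22C. The 3p arm of Mir103-1 and Mir103-2 was identical over 23 nt. The hairpins themselves show how far this identity runs, with capitals for the longest stretch that Mir103-1 and Mir103-2 share (27 nt) and, in Mir107, for the part of it that Mir107 shares with both (24 nt).
Mir103-1: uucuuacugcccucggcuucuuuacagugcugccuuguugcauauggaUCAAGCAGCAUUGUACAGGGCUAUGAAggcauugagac
Mir103-2: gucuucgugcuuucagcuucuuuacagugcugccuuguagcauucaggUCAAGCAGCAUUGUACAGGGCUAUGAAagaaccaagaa
Mir107: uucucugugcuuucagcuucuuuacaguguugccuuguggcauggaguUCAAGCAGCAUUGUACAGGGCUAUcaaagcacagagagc

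These stretches bear on the counts, because the column layout is that of a counter which assigns a read that fits several places to no gene. A read of any length from 18 to 23 nt that began at base 1 of miR-103-3p matched at least 2 annotated hairpins. For miR-107-3p, reads of 18 to 21 nt matched 3 hairpins, and only reads of 22 nt or more, which reach the base of G22C, matched Mir107 alone. Reads from base 1 of every 5p arm in the Pank group matched 1 hairpin from 18 nt upwards. The 5p arms of Mir103-1 and Mir103-2 share 22 nt from base 2, however, so a read of 18 to 22 nt that begins there matches both hairpins. The counts of Mir103-1 and Mir103-2 therefore leave out reads that lie within their 3p arm, and such reads of their 5p arm. The counts of all 3 Pank genes are lower bounds on the microRNAs they make.

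Mir33 and Mir139 were free of this limit among the annotated hairpins. The longest stretch that Mir33 shared with any of the other 2201 hairpins, on either strand, was 12 nt, and for Mir139 it was 11 nt. No window of 18 nt in either hairpin occurred elsewhere in the annotation, against 16 of 69 windows in Mir103-1, 22 of 69 in Mir103-2 and 13 of 70 in Mir107. Only annotated hairpins were searched, and matches elsewhere in the genome were not analysed here. The hairpins of Mir33 and Mir139 are given with both mature arms in capitals.
Mir33: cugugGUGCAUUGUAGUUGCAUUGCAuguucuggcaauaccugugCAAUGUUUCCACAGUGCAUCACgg
Mir139: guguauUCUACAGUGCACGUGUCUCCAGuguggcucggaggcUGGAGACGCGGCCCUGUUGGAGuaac

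**Figure D1:**
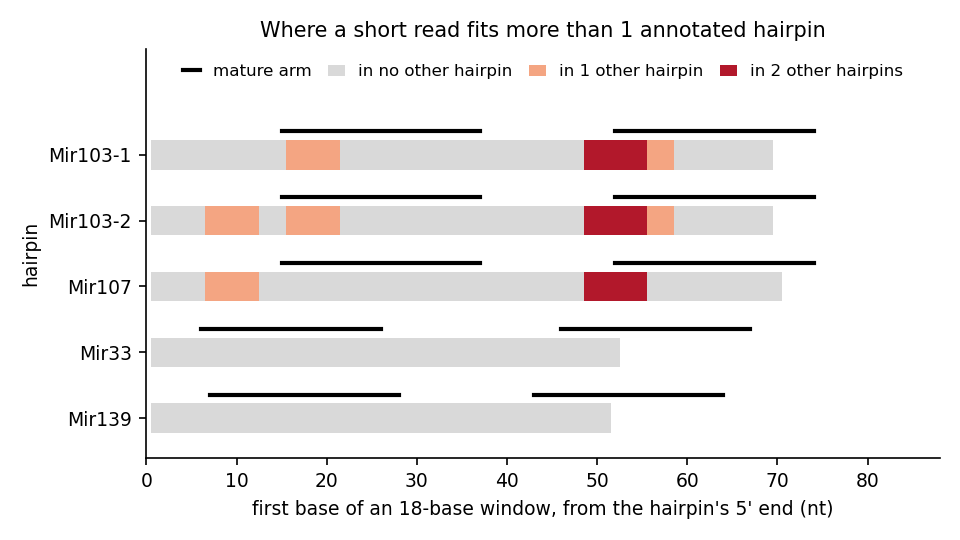
Each row is a hairpin, and each position on the horizontal axis is the first base of an 18-base window, in nt from the 5′ end. Colour gives the number of other annotated hairpins, on either strand, that hold the window (grey for none, orange for 1, red for 2), and black lines mark the mature arms. Red windows appear only in the 3 Pank hairpins, at the start of the 3p arm, and all windows of Mir33 and Mir139 are grey.

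All 5 hairpins lay on the strand of their host and within an intron in every host transcript that spans them, with no overlap with a host exon. In the principal transcripts, each with 7 exons, the Pank hairpins all stood in intron 5 of 6. Mir103-1 (chr11:35782396-35782481, plus strand, mm10) lay in an intron of 1740 bp of Pank3, 688 bp after the upstream exon. Mir103-2 (chr2:131288052-131288137, plus strand) lay in an intron of 5801 bp of Pank2, 454 bp after the exon. Mir107 (chr19:34820687-34820773, minus strand) lay in an intron of 7282 bp of Pank1, 326 bp after the exon.

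Mir33 (chr15:82198122-82198190, plus strand) stood in intron 16 of 18 of Srebf2, 335 bp into 1848 bp. Mir139 (chr7:101475376-101475443, plus strand) stood in intron 2 of 31 of Pde2a, an intron of 29902 bp, and was the farthest of the 5 from its upstream exon, at 23907 bp. A second annotated protein-coding gene, Gm45837, spans Mir139 on the same strand. None of the 5 was part of a microRNA cluster: the nearest other annotated microRNA gene was 70.1 kb away for Mir107, and 165 kb or more away for the other 4.

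**Figure D2:**
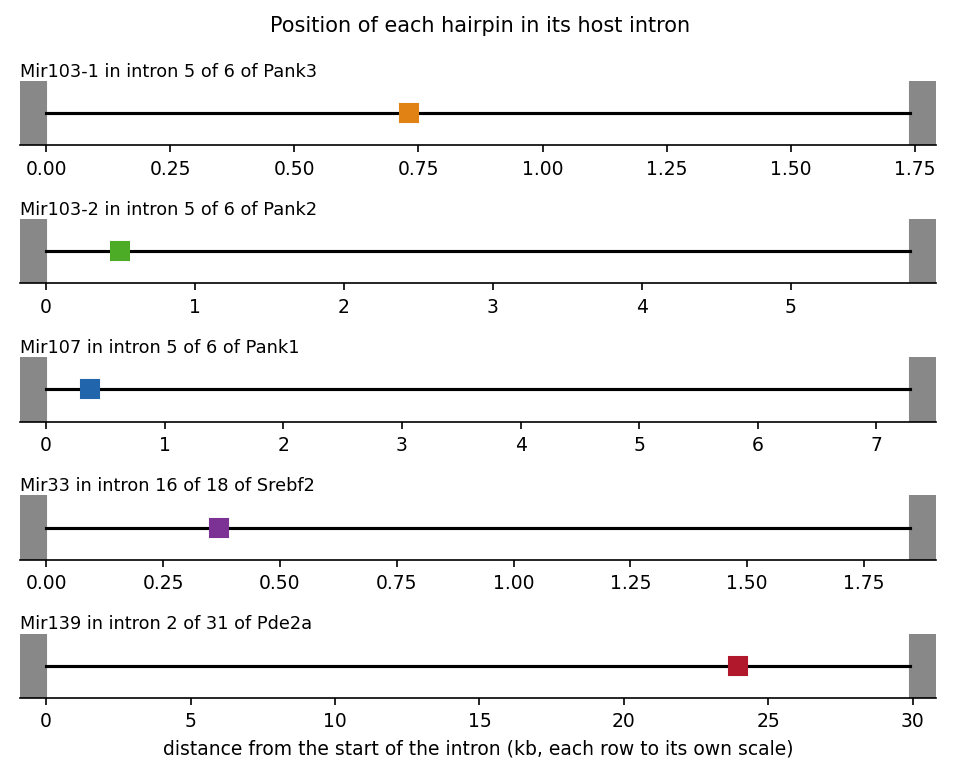
Each row is the host intron that holds a hairpin, drawn from its 5′ end, with the distance in kb on a scale of its own and grey blocks for the flanking exons, whose width is not to scale. The square marks the centre of the hairpin. Mir103-2, Mir107 and Mir33 lie in the first 20% of their introns, Mir103-1 nearer the middle and Mir139 at about 80%.

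Levels are in CPM, the usual sequencing unit, which is each count as a share of all reads of its library that were assigned to microRNA genes, scaled so that every library has the same total. Replicate 1 had 2672454 such counts and replicate 2 had 4292012, so a single read was worth 0.374 CPM and 0.233 CPM. Where no read was counted, a fixed limit of 3 reads was used, which is 1.12 CPM and 0.699 CPM. Reads that aligned to several places numbered 4219456 in replicate 1 and 6352784 in replicate 2, more than the assigned reads, and stay out of every level. Over the genes at a mean of 10 CPM or more the chi-square of the replicates' counts was 144.5 per degree of freedom, so the files do not hold 1 library deposited 2 times. That value does not show that the libraries came from separate animals, and each SD given here describes the spread between 2 libraries. As a check of the tissue, 8 of 9 skeletal muscle genes reached 1 CPM in both replicates, beside 16.7% of all microRNA genes. Mir206 led at 89900 ± 7361 CPM (SD, n = 2), and the other 7 ran from a mean of 3.08 to one of 591 CPM. Whether the muscle genes share mature arms with other genes was not analysed here. A low level among them therefore need not mean a scarce microRNA. The same threshold was reached by 4 of 4 leukocyte genes and 2 of 2 red cell genes. The hepatocyte microRNA Mir122 stood at 229 CPM in the first replicate and 14.2 CPM in the second, and the red cell pair Mir451a and Mir144 summed to 437 and 185 CPM. The 4 leukocyte genes summed to 1185 CPM in replicate 1 and 853 CPM in replicate 2, where 3 of them, Mir155, Mir150 and Mir142, were lower. Whether such cells have a part in the levels below was not tested, and in whole tissue fewer cells of a type and less RNA per cell cannot be told apart.

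The 5 genes ran from an abundant microRNA gene of the muscle, Mir139, to Mir103-1 at the detection limit. Together they held 1.38% of assigned counts in replicate 1 and 1.20% in replicate 2 (1.29% ± 0.125, SD, n = 2), and Mir139 accounted for 99.0% and 98.9% of their reads. In both replicates 4 of the 5 reached 1 CPM, the level taken here as expressed, as did 16.7% of all microRNA genes. The exception was Mir103-1. At 10 CPM in both replicates 2 of the 5 remained, Mir139 and Mir107, beside 11.6% of all genes.

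Of the Pank group, Mir107, in Pank1, gave the most assigned reads. It had 324 reads in replicate 1 and 520 in replicate 2. Its level was 121 CPM in both (121 ± 0.0577 CPM, SD, n = 2), with 95% counting intervals (exact Clopper-Pearson) of 108 to 135 CPM in replicate 1 and 111 to 132 CPM in replicate 2. The 2 levels differed by less than counting error. Mir107 stood above 54.2% of the 367 expressed genes.

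Mir103-2, in Pank2, had 29 reads in replicate 1 and 35 in replicate 2. These amount to 10.9 CPM (7.27 to 15.6) and 8.15 CPM (5.68 to 11.3), a mean of 9.50 ± 1.91 CPM (SD, n = 2). Mir103-1, in Pank3, had no read in replicate 1, where the exact interval reached 1.38 CPM. It had 3 reads in replicate 2, which is 0.699 CPM (0.144 to 2.04). Mir103-1 was thus at or under the limit set by 3 reads in both libraries, and no fold between the replicates is given for it. Within a library, Mir107 had 11.2 times the reads of Mir103-2 in replicate 1 (95% counting interval 7.63 to 17.0) and 14.9 times in replicate 2 (10.5 to 21.6).

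That order holds for reads assigned to a single gene. Since miR-103-3p could not be assigned to either Mir103 gene, whereas miR-107-3p of 22 nt or more could be assigned to Mir107, the order of these 3 counts is not an order of the microRNAs. Summed over the 3 Pank hairpins, assigned reads came to 132 CPM in replicate 1 and 130.0 CPM in replicate 2. The 5p and 3p arms are pooled in each gene's count, so how many of the reads of Mir103-2 came from its 5p arm is not known.

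Mir33, in Srebf2, was rare. It had 7 reads in replicate 1 and 27 in replicate 2, or 2.62 CPM (1.05 to 5.40) and 6.29 CPM (4.15 to 9.15), with a mean of 4.46 ± 2.60 CPM (SD, n = 2). It stood above 17.7% of expressed genes. Unlike those of the Pank genes, this level does not leave out reads of 18 nt or more shared with another annotated hairpin. Mir33 and Mir103-2 were close in the order. Mir103-2 had 4.14 times the reads of Mir33 in replicate 1 (1.78 to 11.2), but in replicate 2 the factor was 1.30 and its interval, 0.762 to 2.23, included 1, so this pair was not separated in both libraries. Mir33 had 9.00 times the reads of Mir103-1 in replicate 2 (2.77 to 46.4), and 7 reads against none in replicate 1.

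Mir139, in Pde2a, was abundant. It had 36473 reads in replicate 1 and 50975 in replicate 2, or 13648 CPM (13509 to 13788) and 11877 CPM (11774 to 11980), a mean of 12762 ± 1252 CPM (SD, n = 2). By assigned reads it ranked 15th of 2202 genes in replicate 1 and 19th in replicate 2, above 95.4% of expressed genes. Reads that aligned to several places, which outnumber the assigned ones, are left out of this order. How the genes that lose such reads would rank beside Mir139 was not analysed. Mir139 had 113 times the reads of Mir107, the next of the 5, in replicate 1 (101 to 126) and 98.0 times in replicate 2 (89.91 to 107.1). The intervals of the pair did not overlap in either library. No read fell on the opposite strand of any of the 5 genes.

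**Figure D3:**
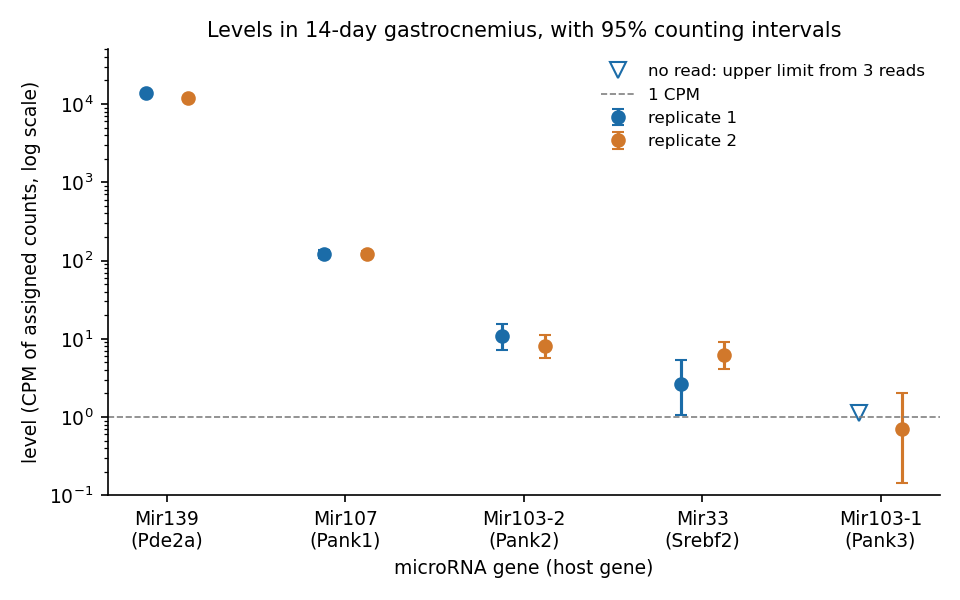
Level of each gene in CPM on a log scale, with replicate 1 in blue and replicate 2 in orange, and 95% counting intervals as bars. The open triangle is the fixed limit of 3 reads where no read was counted, not a counting interval, and the dashed line is 1 CPM. Mir139 lies at 13648 and 11877 CPM, Mir107 at 121 CPM, Mir103-2 and Mir33 below 20 CPM, and Mir103-1 at or under its limit in both replicates.

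Genes in introns were expressed about as often as all microRNA genes. Of the 733 microRNA genes that lie wholly in a same-strand intron of a protein-coding gene, 129 (17.6%) were expressed, beside 16.7% of all genes. The median of the expressed intronic genes was 44.7 CPM. By assigned reads, Mir139 ranked 5th within this class, after Mir378a, Mirlet7g, Mir23b and Mir26b. Mir107 ranked 52nd, Mir103-2 86th, Mir33 102nd and Mir103-1 208th, and the last of these was not called expressed.

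**Figure D4:**
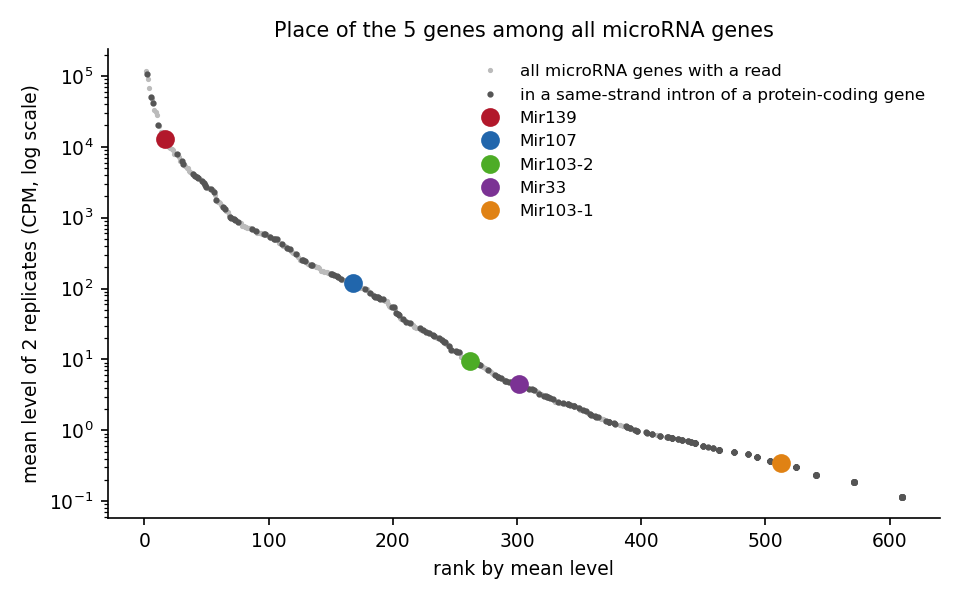
Mean level of the 2 replicates, in CPM on a log scale, against rank, for all microRNA genes with a read. Dark points are genes in a same-strand intron of a protein-coding gene, and large coloured points are the 5 genes described here, from Mir139 at rank 17 to Mir103-1 at rank 513.

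The genes most like each of the 5 were then listed. Likeness was measured as the distance in log2(CPM + 1) over the 2 replicates, and with only 2 libraries it describes level and little else. The genes nearest to Mir139 were Mir335 (11948 CPM in replicate 1 and 12801 CPM in replicate 2), Mir487b and Mir431. These 3 were each higher in replicate 2, where Mir139 was lower. Nearest to Mir107 were Mir223, a myeloid microRNA, at 120.5 and 124.4 CPM, then Mir671 and Mir370. Nearest to Mir103-2 were Mir5121, Mir8112 and Mir200c, and nearest to Mir33 were Mir3475, Mir375 and Mir219a-1. For Mir103-1, 11 genes had the same 0 and 3 reads and could not be ranked.

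The replicates were then set side by side for the members, as ratios of replicate 2 over replicate 1 with counting intervals. These compare 2 libraries, not conditions. Among the 176 genes at a mean of 100 CPM or more, the interval excluded 1 for 73.9%, with 39.2% of genes higher in replicate 2 and 34.7% lower. Mir139 was among those lower in replicate 2, at a ratio of 0.870 (0.859 to 0.882). The endothelial microRNA Mir126a, given since endothelial cells are known to express Pde2a, was at 1.0046 (1.0001 to 1.009), with its lower limit next to 1. Scaling with edgeR's TMM or with DESeq2 factors shifts every log2 ratio by -0.029 or -0.018. Either shift puts the whole interval of Mir126a below 1, so its direction depends on the scaling. The other listed endothelial gene, Mir126b, had 2 reads in replicate 1 and 1 in replicate 2. The part of endothelial cells in the level of Mir139 was not tested. The ratio of Mir107 was 0.999 (0.868 to 1.15). The median gap of the 176 genes, regardless of direction, was 1.12-fold, and 103 of them were closer to equal than Mir139, which had a gap of 1.15-fold. The difference for Mir139 thus exceeded counting error, and most genes at this level were closer to equal.

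Among the 191 expressed genes under a mean of 100 CPM, the interval excluded 1 for 18.8%. Mir103-2 was at 0.751 (0.446 to 1.27), which includes 1. Mir33 was at 2.40 (1.02 to 6.53), higher in replicate 2, but the lower limit sat next to 1 and passed below it with edgeR's TMM factors, with unstranded counts and without the 10 most abundant genes in the total. In these 191 genes the median gap was 1.29-fold, and 19 genes, Mir33 included, were at least as far apart as Mir33.

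**Figure D5:**
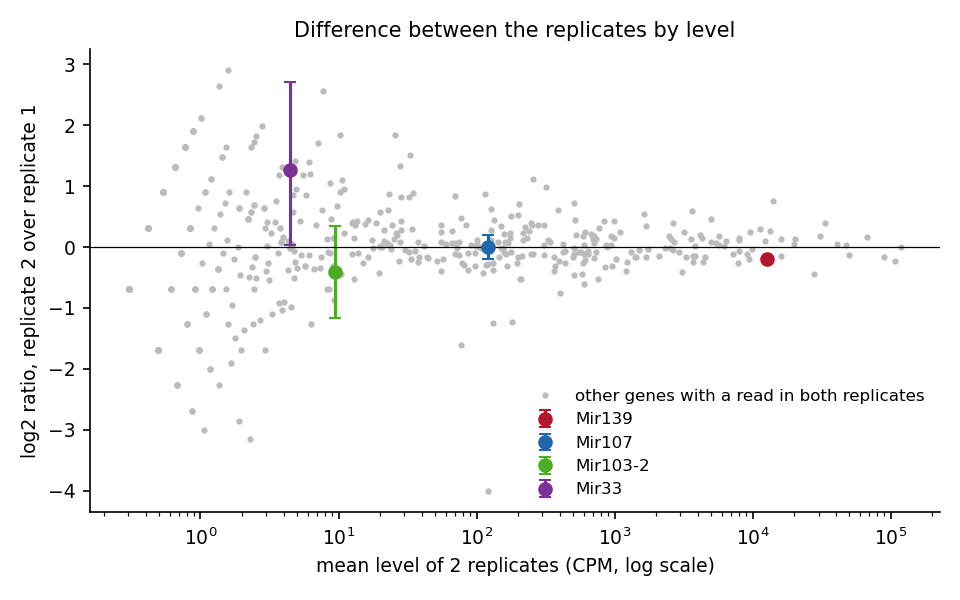
Log2 ratio of replicate 2 over replicate 1 against mean level in CPM on a log scale. Grey points are other genes with a read in both replicates, coloured points are Mir139, Mir107, Mir103-2 and Mir33, and bars are 95% counting intervals. Mir107 lies at 0, Mir139 slightly below it, and the bars of Mir103-2 and Mir33 are wide because each rests on 7 to 35 reads a library.

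The 3p arms of the Pank group begin with AGCAGC, the letters that also follow the first base of miR-15 and miR-16, and these microRNAs are grouped as relatives for that reason. AGCAGC stood within the first 8 bases of 13 of 1679 distinct mature arms (0.774%). It started at base 1 in miR-103-3p and miR-107-3p, and at base 2 in an arm of 9 of the 10 annotated genes listed as relatives, so the 7-base seeds of the Pank group and of those relatives differ. Against Mir107 at 121 ± 0.0577 CPM, the most counted of the Pank group, 8 of the 10 relatives were higher. They ran from Mir16-2 at 160.2 ± 7.002 CPM to Mir322 at 9510 ± 1184 CPM. Mir195a stood at 7963 ± 253 CPM, Mir15a at 1407 ± 116 CPM, Mir15b at 1021 ± 99.3 CPM and Mir497 at 753 ± 193 CPM. Mir16-1 had 573 ± 20.5 CPM and Mir503 had 233 ± 16.5 CPM, and Mir195b and Mir497b had no read in either replicate. The arm annotated for Mir497b lacks AGCAGC. Since the counts of the Pank genes leave out miR-103-3p, this comparison concerns assigned reads only. The 2 Mir16 genes likewise share their 5p arm.

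A list of 26 other microRNA genes tied in the literature to lipid and glucose metabolism put the 5 in context. Of the 5 genes described here 4 were expressed, and of the list 24 were, beside 16.7% of all microRNA genes. The median level was 9.50 CPM over the 5 and 189.8 CPM over the list, against 0 CPM over all 2202 genes and 81.5 CPM over the expressed ones. The median of the 5 is the level of Mir103-2, whose count leaves out reads within its 3p arm. Counts of the Pank genes are lower bounds here too, so these comparisons concern assigned reads only. The 4 highest genes of the list were Mir378a, Mir26b, Mir143 and Mir10b. Mir378a, hosted by the mitochondrial coactivator gene Ppargc1b, stood at 106759 ± 11740 CPM, Mir26b at 20377 ± 1379 CPM, Mir143 at 19812 ± 483 CPM and Mir10b at 7959 ± 443 CPM. Mir139 was above all but 3 of the list in each replicate. Mir107 stood above 8 of the list in replicate 1 and 11 in replicate 2, and Mir33 above 3 in replicate 1 and 4 in replicate 2. Those below Mir33 in both replicates were Mir758, Mir96 and Mir802. Whether the listed genes share mature arms with other genes was not analysed here. A place below Mir107 or Mir33 therefore need not mean a scarcer microRNA. Of the 19 listed genes at a mean of 100 CPM or more, the ratio interval lay above 1 for 5 and below 1 for 10, the liver and red cell markers Mir122 and Mir144 among the 10. The 15 are 78.9% of the listed genes at this level, near the 73.9% of all genes at this level (39.2% higher and 34.7% lower in replicate 2). Mir148a, a liver microRNA that targets the LDL receptor, was higher in replicate 2, at 1.20 (1.09 to 1.33), and Mir27b lower, at 0.847 (0.827 to 0.867).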

How the data were processed

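The authors deposited raw counts of reads per microRNA gene, 1 file per library, made on the mm10 assembly with annotation M21, per the file headers of the accompanying text. The sources used here name no aligner or counter. The 4 summary lines and the 3 count columns have the layout of STAR's gene counts. The same-strand counts (column 3) were divided by the total over gene lines. The summary lines, 66.6% and 64.6% of the reads of replicates 1 and 2, stayed out of that total. All 2202 identifiers matched GENCODE M21. The reference is C57BL/6J sequence, and variants of the CAST/EiJ alleles were not analysed.

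A single group allows no test between groups, and no p-value was computed. Intervals are exact binomial (Clopper-Pearson, 95%), ratios between replicates use the split of their pooled reads, and both cover counting error only, as the labels name no molecular identifiers. The interval code was tested on simulated data. The named genes were the members, the 3 genes nearest to each in log2(CPM + 1), all relatives of the miR-15 group and the 4 highest of the metabolic list. Mir497a of the relatives had no gene of that symbol, and genes named beyond the rule were chosen after their values were seen. Members and lists were chosen with earlier results of these data known. Lists fixed as markers and expressed at 1 CPM in both replicates held 1 of 2 endothelial genes, 4 of 4 leukocyte, 2 of 8 neuronal and 2 of 3 fat genes, beside 16.7% of all genes. Alternatives were the strand column, edgeR 4.0.16 TMM factors, DESeq2 1.42.0 size factors, other denominators and thresholds, and each replicate alone. The software was Python 3.11.15, numpy 2.4.6, pandas 2.3.3, scipy 1.17.1 and R 4.3.3.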

Additional observations from a re-analysis of the deposited data

How the results depend on the processing

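Levels moved with the denominator. Their order within a library could not move, because all genes of a library are divided by the same total. The unstranded reads of the 5 genes also equalled their same-strand reads. Divided by the total without the 10 most abundant genes, mean CPM was 33098 for Mir139, 314 for Mir107, 24.7 for Mir103-2, 11.4 for Mir33 and 0.886 for Mir103-1. Divided by all reads of the library it was 4379, 41.7, 3.25 and 1.55 for the first 4. With unstranded counts, whose total over genes is smaller, it was 17185 for Mir139, 163 for Mir107 and 12.8 for Mir103-2. The summed share of the 5 was 1.74% with unstranded counts, 3.34% without the 10 most abundant genes and 0.443% of all reads. At 10 CPM in both replicates 2 of the 5 were expressed, beside 11.6% of all genes. Of the 20 recomputed log2 ratios, 17 kept their direction and call. The exceptions were those of Mir33, whose interval included 0 at 1.23 with unstranded counts, 1.23 with TMM and 1.20 without the 10 most abundant genes. All log2 ratios shifted by -0.03 with TMM and by -0.02 with DESeq2 size factors. No paired analysis was possible because there is 1 group. Mir103-1, Mir33 and Mir103-2 rest on at most 35 reads a library. The counts of Mir103-1 and Mir103-2 also leave out reads within their 3p arm, which depth would not change.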
